A study of Mus musculus with 22 samples.

Results

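MHC class I molecules display peptides from inside the cell at its surface, and 10 genes of this pathway were followed in mouse spinal cord by RNA-seq. They were H2-K1, H2-D1, H2-T23, B2m, Tap1, Tap2, Tapbp, Psmb8, Psmb9 and Psmb10. The genes were chosen by name and were matched by Ensembl identifier among 21995 genes in the table, where all 10 were found. Whole spinal cords came from 4 groups of C57BL/6 mice, with 1 library per sample. The aging comparison had 8 Old wild-type mice of 18 to 24 months and 8 Young wild-type mice of 3 to 4 months, all male, with libraries made by the Roche RNA KAPA Hyperprep kit. The ALS comparison had 3 symptomatic G93a mice, here called SOD1-G93A, and 3 WT_G93a_Control wild-type mice, here called controls, all of 5 to 6 months and of both sexes, with Illumina TruSeq libraries. The SOD1-G93A line is a high-copy transgenic line that overexpresses a mutant human superoxide dismutase, a cause of inherited ALS, and all mice of the other 3 groups were wild type. The sex of a single library was not in the labels, and kit and experiment coincide.

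In this pathway, proteasomes cut cytosolic proteins into peptides. The immunoproteasome is a form of the proteasome in which the catalytic subunits Psmb5, Psmb6 and Psmb7 are replaced by the interferon-inducible subunits Psmb8, Psmb9 and Psmb10. The transporter formed by Tap1 and Tap2 moves peptides into the endoplasmic reticulum, where tapasin, the product of Tapbp, helps to load them on a heavy chain bound to the light chain B2m. H2-K1 and H2-D1 encode the classical heavy chains of this mouse strain, and H2-T23 encodes the nonclassical heavy chain Qa-1. Neurons and glia of the healthy nervous system hold little class I protein, and microglia, the resident macrophages, and neurons raise it after injury and under interferon.

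Of the 10 genes, 8 lie near each other on chromosome 17, in or next to the major histocompatibility complex (GENCODE M21 on GRCm38, the same assembly as mm10). H2-K1 is at chr17:33996017-34000347 on the minus strand, H2-D1 at chr17:35262730-35267499 on the plus strand and B2m at chr2:122147686-122153083 on the plus strand. Psmb8 (chr17:34197721-34201454) and Psmb9 (chr17:34181987-34187764) flank Tap1 (chr17:34187553-34197225), and Psmb9 overlaps Tap1 on the opposite strand. Psmb10 lies apart at chr8:105935735-105938444. H2-T23, B2m, Tap2, Psmb8 and Psmb10 also overlap genes annotated on the other strand, and Tapbp overlaps Zbtb22 on its own strand. Whether the counting used strand is not stated, so reads shared by such pairs cannot be told apart.

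The promoters of the classical heavy chain and of the light chain are shown because H2-K1 and B2m were among the genes with the largest changes in both comparisons. Capitals mark matches to motifs searched on both strands in the 250 bases before each RefSeq start site. The motifs were an interferon response element (ISRE, GAAANNGAAA), a shorter form (GAANNGAAA), a kappaB element (GGGNNTTCC) and a STAT element (GAS, TTCNNNGAA). The shorter form was searched separately, since an ISRE match does not hold it at the same bases. These letters were chosen after the promoters had been read. Sites of another spacing or length were not searched and stay in lower case, so an unmarked stretch may still hold one. The windows run from 200 bases to 1 base before the start for H2-K1 (chr17:34000348-34000547, minus strand) and to 2 bases before it for B2m (chr2:122147487-122147685, plus strand), in the RefSeq build GRCm38.p6.
H2-K1: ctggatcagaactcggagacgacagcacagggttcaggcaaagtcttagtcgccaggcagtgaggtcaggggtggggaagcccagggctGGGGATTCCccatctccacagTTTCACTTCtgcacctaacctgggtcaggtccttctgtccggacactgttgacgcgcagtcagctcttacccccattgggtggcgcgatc
B2m: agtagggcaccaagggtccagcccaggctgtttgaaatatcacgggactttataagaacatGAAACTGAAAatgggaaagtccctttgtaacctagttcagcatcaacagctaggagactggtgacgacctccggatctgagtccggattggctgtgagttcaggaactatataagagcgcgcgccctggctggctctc

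In H2-K1 the kappaB match began 111 bases before the start and the short interferon element, read on the minus strand, began 90 bases before it. The same arrangement stood in H2-D1, there starting 171 bases before the RefSeq start and inside a transcript annotated by GENCODE. A stretch of 30 bases is shown for both classical heavy chains (H2-K1, chr17:34000429-34000458, minus strand, and H2-D1, chr17:35262923-35262952, plus strand), and for H2-T23 the 30 bases around its match (chr17:36032806-36032835, minus strand).
H2-K1: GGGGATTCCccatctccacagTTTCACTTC
H2-D1: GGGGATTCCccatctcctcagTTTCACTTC
H2-T23: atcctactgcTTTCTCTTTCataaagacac

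The H2-K1 and H2-D1 stretches were identical at 29 of 30 bases, with the substitution A18T counted from the first base shown and with the H2-K1 base first. B2m held a full interferon element beginning 139 bases before its start. H2-T23 held one on the minus strand beginning 124 bases before its RefSeq start, which, as in H2-D1, lies inside a transcript annotated by GENCODE. Psmb8 held a STAT element. RefSeq promoters were found for 9 of the 10 genes, all but Tap2, and Tap1, Tapbp, Psmb9 and Psmb10 had no match in this window. Across 32851 promoter windows of the same length, 2.98% held the full interferon element, 6.31% the shorter one, 4.98% the kappaB element and 7.02% the STAT element.

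Total counts were 5078092 to 9358055 in the young and 5664869 to 9145600 in the old libraries, and 10693060 to 13219797 in control and 9675610 to 11872431 in SOD1-G93A libraries. Mouse Sod1 stood at 296 to 335 CPM (counts scaled by library size) in the SOD1-G93A libraries and at 156 to 168 in controls, and whether reads of the human transgene were counted there was not tested. The summed CPM of 12 microglia and macrophage markers was 503 to 803 in old against 318 to 366 in young mice, and 1290 to 2100 in SOD1-G93A against 336 to 405 in control mice. In each comparison 1 library lay low. The SOD1-G93A library with 9675610 counts had the lowest CPM of its group for all 10 genes and the lowest marker sum (1290, against 1770 and 2100). The old library with 7055388 counts was the lowest of its group for 7 of the 10 genes, with a marker sum of 503 against 648 to 803 in the other old libraries. In whole tissue, more cells of a type and more RNA per cell cannot be told apart.

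All 10 genes were higher in old than in young spinal cord at an adjusted p under 0.05 (edgeR's quasi-likelihood test with p-values adjusted by Benjamini-Hochberg across the genes tested, as for each adjusted p that follows), where 13.5% of 13647 tested genes were higher and 12.9% lower. Of the 10, 6 also passed a log2 fold change of 1, namely H2-K1, H2-D1, B2m, Tap1, Psmb8 and Psmb9, against 2.18% of all genes. Psmb9 was kept by the filter on low counts through the old libraries. With at least 10 counts in every library it was untested and 5 genes passed, and with no filter 6 passed. The old libraries lay wholly above the young ones for 7 of the 10, against 3.66% of all genes. The median log2 fold change of the 10 was 1.10, and that of all genes was -0.00273. In SOD1-G93A mice 9 of the 10 were higher than in controls, where 18.4% of 14386 genes were higher and 15.5% lower. Of these, 7 passed both thresholds (all but Tap2, Tapbp and Psmb10), against 8.5% of all genes, and 9 did not overlap between groups, against 25.7%. The median log2 fold change there was 1.84, against 0.00306 for all genes.

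**Figure D1:**
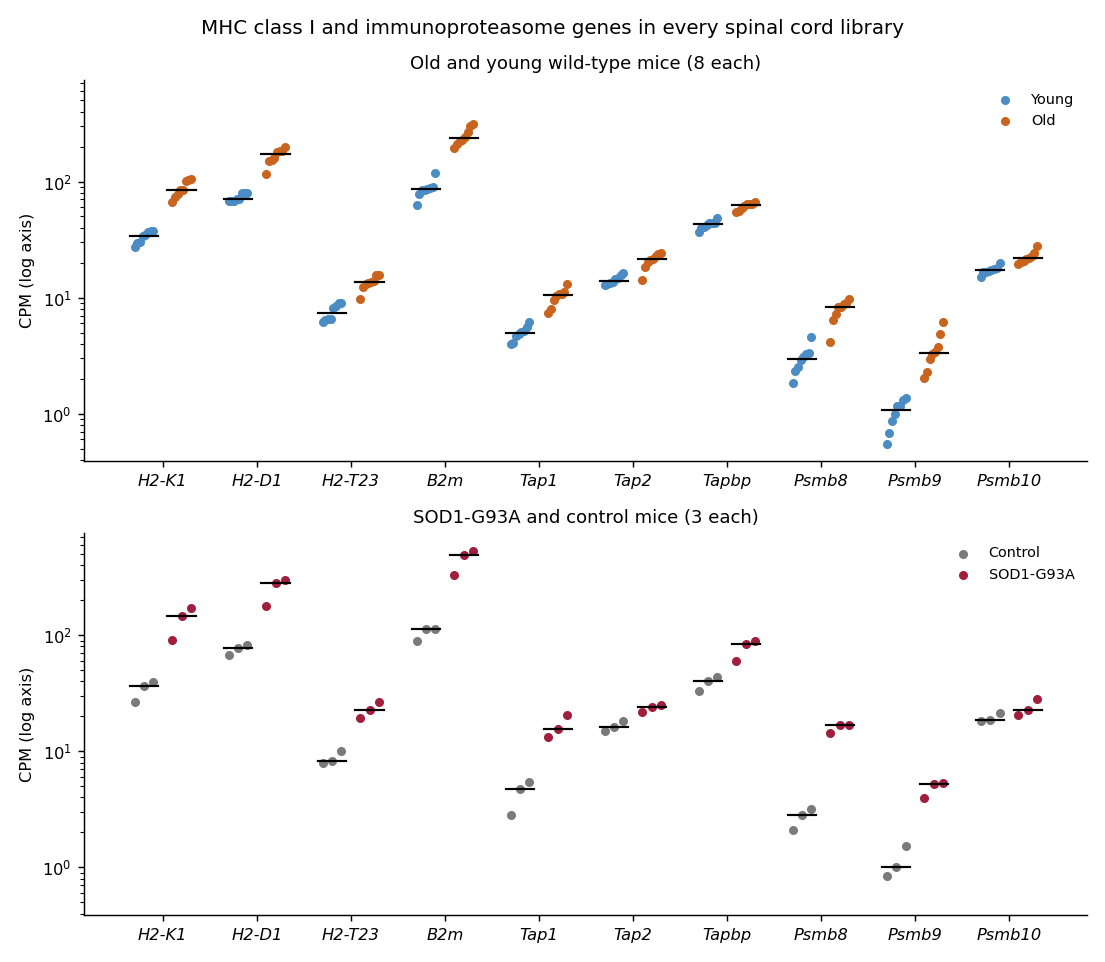
CPM of each gene (log axis) in every library, with young and old mice above and control and SOD1-G93A mice below. Points are libraries and bars are group medians. B2m is the highest and Psmb9 the lowest gene in each group, and the groups of Psmb10 overlap in both comparisons.

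Both classical heavy chains rose. H2-K1 was at 27.1 CPM in the lowest, 34.2 in the median and 37.6 in the highest young library, and at 66.3, 84.8 and 105 in the old libraries. The lowest old library was thus above the highest young one, and the log2 fold change was 1.38 ± 0.0917 (SE, adjusted p = 1.12e-10, edgeR). H2-K1 reached 90.9, 147 and 172 CPM in the 3 SOD1-G93A libraries against 26.6, 36.3 and 39.3 in the controls, a log2 fold change of 2.01 ± 0.234 (adjusted p = 0.000587, edgeR). H2-D1 was the more abundant of the pair. In the young libraries it ranged from 67.6 CPM over a median of 70.6 to 80.3, and in the old ones from 116 over 171 to 197, a log2 fold change of 1.18 ± 0.0805 (adjusted p = 1.55e-10, edgeR). The SOD1-G93A libraries held 179, 284 and 299 CPM of H2-D1 and the controls 67.1, 77.6 and 82.8, with no overlap and a log2 fold change of 1.75 ± 0.187 (adjusted p = 0.000384, edgeR).

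H2-T23, whose product presents leader peptides of other class I chains to NK cell receptors, was low and changed less. Young libraries held 6.18 CPM at the lowest, 7.34 at the median and 9.05 at the highest, and old libraries 9.72, 13.5 and 15.8. The groups did not overlap, but the log2 fold change of 0.82 ± 0.111 stayed under 1 (adjusted p = 6.54e-06, edgeR). It stood at 19.3, 22.8 and 26.6 CPM in SOD1-G93A mice and at 8, 8.22 and 9.96 in controls, a log2 fold change of 1.40 ± 0.162 (adjusted p = 0.000565, edgeR).

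Class I genes have close paralogs, among which RSEM divides reads that match several genes. The counts of 24 class I H2 genes were therefore also summed, 18 of which had counts in the aging libraries and 17 in the ALS libraries. The sum had a log2 fold change of 1.10 ± 0.073 in aging (adjusted p = 1.1e-10, edgeR) and 1.57 ± 0.18 in SOD1-G93A mice (adjusted p = 0.000546, edgeR). H2-K1 and H2-D1 together took 62.6 to 67.8% of the summed counts in young and 70.1 to 74% in old libraries, and 62.9 to 65.3% in control and 72.4 to 79.4% in SOD1-G93A libraries. Their share thus did not overlap between groups in either comparison.

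B2m, the light chain shared by all these heavy chains, was the most abundant of the 10 genes per length. In FPKM, a level that also corrects for transcript length, its median was 98.3 in young, 265 in old, 127 in control and 582 in SOD1-G93A libraries. In CPM the young libraries ran from 63.3 over a median of 85.8 to 119, and the old ones from 195 over 236 to 313. The young and old libraries were separate, with a log2 fold change of 1.51 ± 0.103 (adjusted p = 1.55e-10, edgeR). SOD1-G93A libraries held 333, 495 and 534 CPM, each above the controls at 88.7, 113 and 113, with a log2 fold change of 2.11 ± 0.183 (adjusted p = 0.000182, edgeR).

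The transporter subunits and tapasin rose to different degrees. Tap1 went from 3.95, 4.99 and 6.22 CPM (lowest, median and highest) in young to 7.4, 10.6 and 13.1 in old libraries, without overlap. Its log2 fold change of 1.02 ± 0.126 was just above the threshold of 1 (adjusted p = 2.12e-06, edgeR), and fell to 0.96 to 1 when any of 5 libraries was left out (young libraries with 5078092 and 9358055 counts, old libraries with 8258796, 6663344 and 5664869 counts). In SOD1-G93A mice Tap1 was at 13.2, 15.5 and 20.4 CPM against 2.84, 4.71 and 5.41 in controls, a log2 fold change of 1.93 ± 0.259 (adjusted p = 0.00114, edgeR). Its partner Tap2 overlapped between the ages, with 12.8, 13.9 and 16.3 CPM in young and 14.2, 21.3 and 24.3 in old libraries (log2 fold change 0.55 ± 0.0934, adjusted p = 0.000123, edgeR). Tap2 held 21.7, 24.1 and 25.2 CPM in SOD1-G93A and 15.1, 16.2 and 18.2 in control libraries, without overlap (log2 fold change 0.52 ± 0.122, adjusted p = 0.0125, edgeR). Tapbp ran from 36.7 over 43.0 to 48.5 CPM in young and from 54.8 over 62.5 to 67.2 in old libraries, also without overlap (log2 fold change 0.53 ± 0.0568, adjusted p = 2.71e-07, edgeR). The SOD1-G93A libraries held 59.6, 83.9 and 89.7 CPM of Tapbp and the controls 32.9, 40.4 and 43.7 (log2 fold change 0.996 ± 0.164, adjusted p = 0.00309, edgeR), a change just under the threshold that passed it without the low SOD1-G93A library (1.16), without either of the control libraries with 10693060 (1.08) and 13219797 counts (1.02).

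Of the 3 immunoproteasome subunits, Psmb8 and Psmb9 rose strongly and Psmb10 little. Psmb8, the chymotrypsin-like subunit, was at 1.85, 2.96 and 4.61 CPM in young (lowest, median, highest) and 4.16, 8.32 and 9.77 in old libraries. The lowest old library, which is the one with 7055388 counts, lay within the young range, and the log2 fold change was 1.36 ± 0.176 (adjusted p = 3.52e-06, edgeR). The SOD1-G93A libraries stood close together at 14.3, 16.8 and 16.8 CPM against 2.09, 2.84 and 3.20 in the controls, a log2 fold change of 2.55 ± 0.194 (adjusted p = 0.000124, edgeR). This was the largest change of the 10 genes in the ALS comparison.

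Psmb9 had the largest change of the 10 genes in aging and the lowest level. Its counts were 5 to 12 per young library, near the level of 3 counts (0.321 to 0.591 CPM), and it was kept by the filter on low counts through the old libraries. Psmb9 ran from 0.549 over 1.08 to 1.36 CPM in young and from 2.04 over 3.33 to 6.11 in old libraries, a log2 fold change of 1.83 ± 0.249 (adjusted p = 7.42e-06, edgeR). It was at 3.93, 5.19 and 5.34 CPM in SOD1-G93A and at 0.845, 1.01 and 1.52 in control libraries, again without overlap (log2 fold change 2.11 ± 0.306, adjusted p = 0.00169, edgeR). Psmb10, the subunit encoded outside chromosome 17, was at 15, 17.1 and 19.9 CPM in young and 19.5, 21.8 and 27.9 in old libraries, which overlapped (log2 fold change 0.38 ± 0.0772, adjusted p = 0.000854, edgeR). In the ALS comparison it was at 20.5, 22.5 and 28.2 CPM in SOD1-G93A and 18.4, 18.7 and 21.3 in control libraries, and did not pass the test (log2 fold change 0.29 with a 95% confidence interval from -0.03 to 0.61, adjusted p = 0.144, edgeR).

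**Figure D2:**
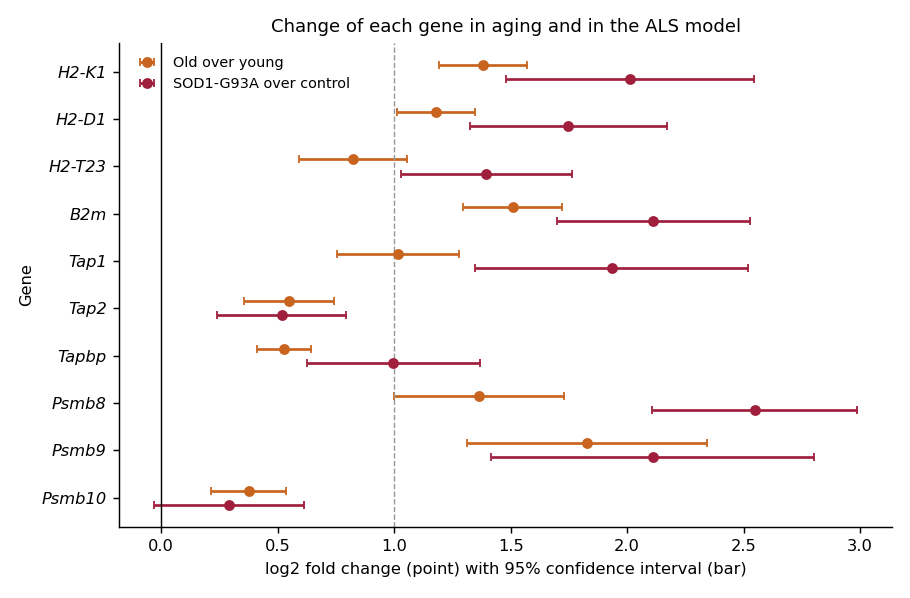
Log2 fold change of each gene (points) with its 95% confidence interval (bars) for old over young and SOD1-G93A over control mice. The dashed line marks 1. Psmb8 has the largest change in the ALS comparison (2.55) and Psmb9 in aging (1.83), and the interval of Psmb10 in the ALS comparison includes 0.

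Compared per length, the genes kept a wide spread of levels. In young mice the median FPKM ran from B2m (98.3) over H2-D1 (43.8), Psmb10 (21.8), H2-K1 (21.4), Tapbp (15.5), Tap2 (5.37), H2-T23 (4.38), Psmb8 (2.32) and Tap1 (2.28) to Psmb9 (0.97). Of neighbours in this order, B2m and H2-D1, H2-D1 and Psmb10, and Tapbp and Tap2 had separate ranges over the young libraries, and every other neighbouring pair overlapped. In old mice H2-K1, at a median of 55.5 FPKM with a range of 37.8 to 67.5, stood above Psmb10, at 29 with a range of 24.7 to 36.3. In SOD1-G93A mice the Psmb8 median of 14.9 FPKM stood above that of Tap2 (9.90) without overlap.

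The immunoproteasome subunits were also compared with the constitutive subunits they replace, as a ratio of FPKM in each library. Psmb8 was 2.24 to 7.10% of Psmb5 in young libraries (median 3.75%) and 7.50 to 12.1% in old ones (median 9.38%), which did not overlap. The log2 ratio rose by 1.29 (2.45-fold, exact two-sided permutation test over 12870 arrangements, p = 0.000155, the smallest it can give, 0.000233 adjusted over 3 pairs). Psmb9 was 0.536 to 1.57% of Psmb6 in young (median 0.94%) and 1.86 to 6.21% in old libraries (median 3.29%). The log2 ratio rose by 1.79, with the same exact permutation p of 0.000155 (adjusted 0.000233). The young ratios rest on 5 to 12 Psmb9 counts per library, so this p is not taken as support. Psmb10 was already 20.1 to 30.0% of Psmb7 in young libraries and 28.3 to 38.5% in old ones, which overlapped, with a rise of 0.31 (exact permutation p = 0.000777, adjusted 0.000777). In SOD1-G93A libraries Psmb8 made 20.8, 24.1 and 24.8% of Psmb5 against 3.48, 4.23 and 5.77% in controls, a 5.27-fold difference. Psmb9 made 3.30 to 5.40% of Psmb6 against 1.46 to 2.54%, and Psmb10 made 26.9 to 41.8% of Psmb7 against 24.1 to 26.6%. With 3 libraries per group the exact permutation test cannot go below 0.1, which is the p all 3 pairs had.

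**Figure D3:**
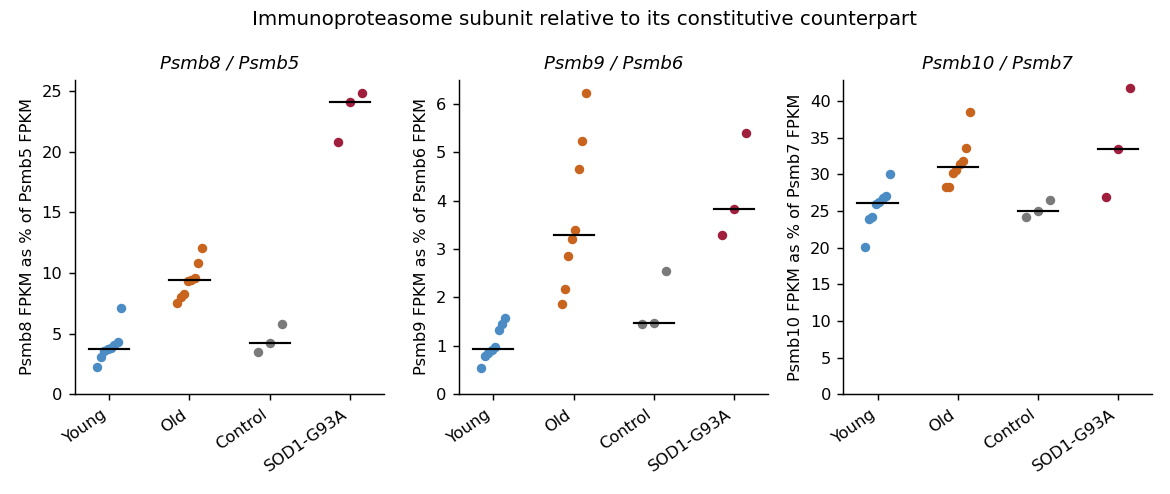
FPKM of Psmb8, Psmb9 and Psmb10 as a percentage of the FPKM of Psmb5, Psmb6 and Psmb7 in each library, with bars at group medians and axes from 0. The Psmb8 ratio has medians of 3.75% in young, 9.38% in old, 4.23% in control and 24.1% in SOD1-G93A mice.

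The constitutive subunits themselves moved little. Psmb6 rose in old mice (log2 fold change 0.24 ± 0.0464, adjusted p = 4e-04, edgeR), while Psmb5 (0.08) and Psmb7 (0.11) did not pass. In the ALS comparison none of the 3 passed in edgeR, and none had an unadjusted p under 0.05. Among 13 other subunits of the proteasome core, 11 were tested, and 3 were higher in old mice (Psmb1 by 0.13, Psmb2 by 0.18 and Psmb3 by 0.22 on the log2 scale). None of the 11 passed in SOD1-G93A mice, where 1 had an unadjusted p under 0.05. Of 9 activator and assembly genes, Psme1, Psme2 and Psme3 were higher in aging and Psme1 and Psme2 in the ALS comparison. Among all genes tested, 13.5% were higher in aging and 18.4% in the ALS comparison. Psme1 and Psme2 encode the interferon-inducible activator that caps the proteasome. Psme1 rose by 0.60 ± 0.0596 (adjusted p = 6.76e-08, edgeR) in old mice and by 0.97 ± 0.148 in SOD1-G93A mice (adjusted p = 0.00208, edgeR) on the log2 scale, without overlap in either.

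Whether each gene changed more in SOD1-G93A mice than in aging was tested as a difference of the log2 fold changes in a fit of all 22 libraries. For 7 of the 10 genes the SOD1-G93A change was the more positive, where 11.6% of 14502 genes were more positive and 14.2% more negative. Psmb8 differed most, by 1.15 ± 0.301 on the log2 scale (adjusted p = 0.00576, edgeR), followed by Tap1 at 0.89 ± 0.258 (adjusted p = 0.0121, edgeR). Tap2 (-0.06), Psmb9 (0.25) and Psmb10 (-0.11) did not pass, with 95% confidence intervals of -0.39 to 0.28, -0.65 to 1.15 and -0.42 to 0.19. The count of 7 fell to 2 without the control library of 12080159 or that of 13219797 counts or the SOD1-G93A library of 11872431 counts, to 1 without the SOD1-G93A library of 10926373 counts, and to 4 with no filter on low counts. Psmb8 passed in each of these fits. The kits, ages and sexes of the experiments differ, and their part in the difference cannot be told apart from that of the disease model.

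The microglia and macrophage markers rose with the 10 genes, so each gene was also divided by the summed CPM of the markers in the same library, a step chosen after seeing the data. Relative to the markers, Tap2, Tapbp and Psmb10 were lower in every old than in every young library, as were 76.4% of all tested genes, and the other 7 genes overlapped. None of the 10 was higher in every old library, against 0.44% of all genes. The difference in the mean log2 ratio to the markers, old minus young, was 0.74 for Psmb9, 0.46 for B2m, 0.33 for Psmb8, 0.32 for H2-K1, 0.11 for H2-D1, -0.04 for Tap1 and -0.22 for H2-T23, all with overlapping groups. With the mean log2 CPM of the markers in place of their sum these values were smaller, at 0.36 for Psmb9, 0.32 for B2m, 0.11 for Psmb8, 0.18 for H2-K1, -0.03 for H2-D1, -0.21 for Tap1 and -0.38 for H2-T23. In SOD1-G93A mice H2-D1, H2-T23, Tap2, Tapbp and Psmb10 were lower relative to the markers without overlap, against 94.1% of all genes, and none was higher, against 1.68%. The difference was 0.38 for Psmb8, -0.07 for Psmb9, -0.10 for B2m and -0.22 for H2-K1, each with overlapping groups.

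Among the 8 old mice, the mean log2 CPM of the 12 markers was compared with each of the 10 genes. Pearson's r was positive for 9 of the 10, against 50.1% of all tested genes. It was 0.959 for Psmb8 (exact permutation p = 0.0057, adjusted over 10 genes 0.057, Spearman's rho 0.595 with exact permutation p = 0.132) and 0.904 for Tap2 (exact permutation p = 0.0118, adjusted 0.0592, rho 0.595 with exact permutation p = 0.132). None of the 10 passed the exact permutation test after adjustment and 4 had a positive r with an unadjusted p under 0.05, against 11.2% of all tested genes. Without the 2 libraries farthest from the median marker level, r was 0.844 for Psmb8, 0.749 for Tap2, -0.175 for Tapbp (from 0.683) and 0.137 for H2-T23 (from 0.733), so that the values for Tapbp and H2-T23 rest on those libraries. B2m went the other way, with r = -0.579 and rho = -0.69 (exact permutation p = 0.133 and 0.0694), and -0.152 without the 2 libraries. The old library with the lowest marker level had the second highest B2m level (302 CPM). With the endothelial list in place of the microglial one, none of the 10 passed after adjustment and 6 had an unadjusted p under 0.05. The share of all genes that did so with the endothelial list was not computed, so the 6 and the 4 cannot be compared. Among young mice, with the microglial list, none of the 10 passed in either way.

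**Figure D4:**
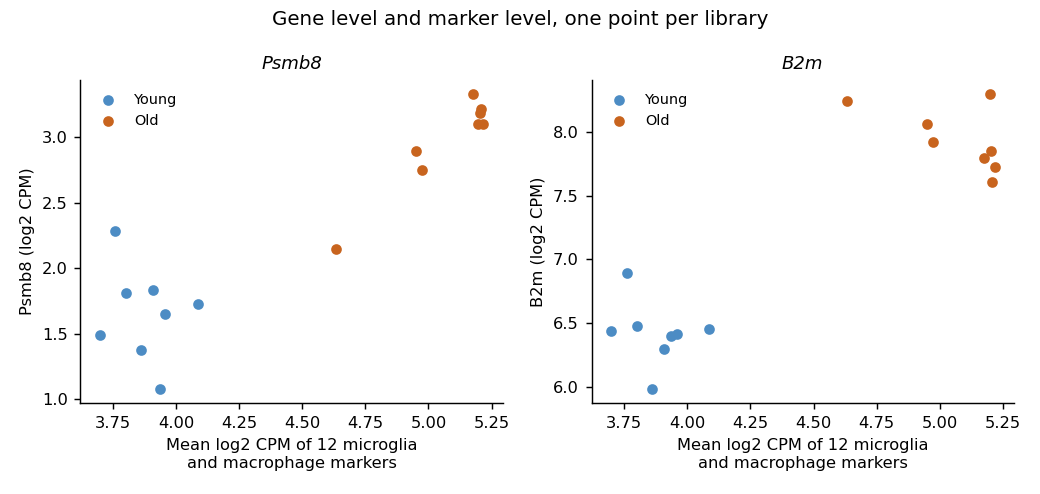
Log2 CPM of Psmb8 and of B2m against the mean log2 CPM of 12 microglia and macrophage markers, with 1 point per young or old library. Among the 8 old libraries r is 0.959 for Psmb8 and -0.579 for B2m, and 1 old library has a lower marker level than the rest.

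Most of the other class I genes tested were also higher. Of 20 listed, 17 were in the table and 11 were tested in aging, of which 7 were higher and none lower. These were H2-Q4, H2-Q6, H2-Q7, H2-T22, H2-M3, Mr1 and Hfe, and the same 7 were higher in SOD1-G93A mice among 12 tested. Among all genes tested, 13.5% were higher in aging and 18.4% in the ALS comparison. H2-Q7 rose by 1.77 ± 0.168 on the log2 scale in old mice (adjusted p = 3.36e-08, edgeR), and H2-Q4 by 1.44 ± 0.169. H2-Q6 was near the floor in young libraries, at 0.131 to 1.82 CPM and at most 16 counts, against 4.49 to 10.2 CPM in old ones. It was kept by the filter on low counts mainly through the old libraries, so its values are given as levels only. Its place among the 7 in aging rests on that filter. H2-Q4, H2-Q6 and H2-Q7 are close paralogs, so the split of reads between them is uncertain. H2-T22, with the highest counts of this list, rose by 0.44 ± 0.0703 (adjusted p = 6.24e-05, edgeR) in aging and 0.41 ± 0.123 (adjusted p = 0.0296, edgeR) in SOD1-G93A mice. Mr1, which presents microbial vitamin metabolites, rose by 0.57 and 0.99, and Hfe, a class I-like regulator of iron uptake, by 0.56 and 1.21. H2-T24 (-0.12 in aging) and H2-Q2 (-0.27 in the ALS comparison) did not pass. Cd1d1, which presents lipids, did not pass either, at -0.13 in aging and -0.64 in the ALS comparison, where every SOD1-G93A library was below every control. Fcgrt, the neonatal Fc receptor, did not pass in either comparison (0.25 and 0.53).

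The general peptide loading and trimming genes that passed did so in both directions. Of all genes tested, 13.5% were higher and 12.9% lower in aging, and 18.4% and 15.5% in the ALS comparison. Whether this list differed from those shares was not tested. Of 16, 1 was higher (Thop1, 0.17 on the log2 scale) and 4 lower in old mice, namely Pdia3, Hspa5 (-0.41), Npepps (-0.19) and Tpp2 (-0.22). In SOD1-G93A mice 4 were higher, among them the trimming peptidase Erap1 (0.71 ± 0.143, adjusted p = 0.00707, edgeR), the tapasin-related Tapbpl (0.72), Sec61a1 (0.66) and Sec61b (0.62), and 2 were lower, Abcb9 (-0.80) and Npepps. The chaperones Calr (-0.14 and 0.22) and Canx (-0.10 and 0.05), which fold class I heavy chains, passed in neither comparison.

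Of 30 listed regulators of class I transcription and interferon signaling, 26 were tested in aging, of which 11 were higher and 1, Jak2, lower. Of 27 tested in the ALS comparison 16 were higher and 1, Jak1, lower. Among all genes tested, 13.5% were higher and 12.9% lower in aging, and 18.4% and 15.5% in the ALS comparison. Nlrc5, the transactivator of class I promoters, was at 0.519 to 2.08 CPM in young and 4.32 to 8.21 in old libraries, a log2 fold change of 1.64 ± 0.208 (adjusted p = 2.68e-06, edgeR). Its counts were at most 19 in a young library, and its lowest young value lay near the level of 3 counts (0.321 to 0.591 CPM). In the ALS comparison Nlrc5 was at 2.85 to 3.61 CPM in control and 10.5 to 15.7 in SOD1-G93A libraries, a log2 fold change of 2.07 ± 0.211 (adjusted p = 0.000311, edgeR). Irf8, a transcription factor of microglia and other myeloid cells, rose by 1.86 in aging and 3.38 in SOD1-G93A mice, and Irf1, an interferon-inducible factor, by 0.71 and 0.88. Ifng and Ifnb1 had at most 1 count in a library and Ifna4 had 0 in all.

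Few genes listed as receptors of class I molecules or as their relatives were measurable. Of 19 listed, 2 were tested in aging and 3 in the ALS comparison. Pirb, an inhibitory receptor that binds class I molecules, was at 0 to 1.58 CPM in young and 2.45 to 5.42 in old libraries, and at 0.615 to 1.77 CPM in control and 4.23 to 8.90 in SOD1-G93A libraries. Lilrb4a, another inhibitory receptor of the same family, was at 0 to 0.878 CPM in young and 1.70 to 21.1 in old libraries, and at 0.615 to 1.18 in control and 51.5 to 92.0 in SOD1-G93A libraries. Pirb had at most 14 counts in a young and 21 in a control library, and Lilrb4a at most 8 and 14. Both were kept by the filter on low counts mainly through the group where they were high, so their values are given as levels only. Cd8a, part of the class I coreceptor of cytotoxic T cells, had at most 9 counts in an old and 2 in a young library and was not tested. The summed CPM of 16 T and NK cell markers was 1.21 to 3.14 in young and 3.70 to 5.85 in old libraries, and 2.46 to 3.37 in control and 3.90 to 5.82 in SOD1-G93A libraries, with 0 and 1 of them tested. Its part in the changes of the 10 genes was not tested.

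Markers of other cells were counted in the same way. Of all genes tested, 13.5% were higher and 12.9% lower in aging, and 18.4% and 15.5% in the ALS comparison. Counts of 1 or 2 among 10 markers are near these shares. Of the microglia and macrophage list, 10 of 12 genes were higher in aging and 9 in the ALS comparison, none lower and none at 0 in all libraries, with median log2 fold changes of 1.08 and 2.19. Cd68, a lysosomal protein of phagocytes, rose by 3.20 and 4.45. Of 10 endothelial markers 3 were lower in aging and 2 in the ALS comparison and none was higher in edgeR (1 and 0 at an unadjusted p under 0.05). Of 8 astrocyte markers 3 were higher and 1, Gja1, lower in aging (median log2 fold change -0.0068), and 5 were higher in SOD1-G93A mice. Gfap, the intermediate filament of astrocytes, had means of 2980 CPM in old and 1840 in young mice, and the summed CPM of the list was 8200 to 9040 in old against 7340 to 7960 in young and 12400 to 19300 in SOD1-G93A against 6790 to 7350 in control mice. Of 10 neuronal markers 2 were lower in aging and 7 in SOD1-G93A mice, none higher. Of 10 spinal cord position markers, Hoxc6 and Hoxa9 were lower in aging and Hoxb8 in SOD1-G93A mice, where 5 had an unadjusted p under 0.05, all lower. Their summed CPM was 421 to 559 in SOD1-G93A against 615 to 633 in control libraries. It was 492 to 636 in 7 old libraries, 578 to 679 in the young ones and 788 in the old library with 7055388 counts. Of the B cell and neutrophil list Csf3r alone passed, by 1.57 and 2.75, and of 8 oligodendrocyte markers 1 was higher in each comparison and 4 were lower in aging. Of the list for nerve root, meninges, muscle and blood, 5 genes were tested in aging, of which none passed in edgeR and 2 had an unadjusted p under 0.05. In the ALS comparison 1 of 7 passed there, Col1a1. The part of these cell types in the changes of the 10 genes was not tested.

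The genes whose variation among mice of one age was most like that of the mean of the 10 were Armc5 (r = 0.896), Glipr2 (0.882), Agpat3 (0.878), Adamtsl3 (0.873) and Fgfrl1 (0.856), over 16 aging libraries with each age group centred on its mean. These are the highest of all tested genes and come with no test. Among the 10 genes themselves, 40 of 45 pairs had a positive r by the same measure, from -0.452 to 0.797 with a median of 0.386, and the pairs share library and depth.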

How the data were processed

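RNA-seq of 22 mouse spinal cord libraries was analysed. The authors used STAR for alignment and RSEM for quantification, with SAMtools 1.3 and the Ensembl annotation of mm10. They deposited RSEM expected counts, which held whole numbers, and log2 values of FPKM plus a pseudocount of 1. For 304 entries the deposited log2 value was above 0 where the count was 0, and for 5 the reverse held. Columns name a group and a library, not a replicate number. Libraries of a group differed by more than sampling noise (chi-square per degree of freedom of at least 2.52). Each library is 1 mouse, per the study's methods. The members and gene lists, and the named genes, were chosen with earlier results of these data known. All 10 genes are named, with set counterparts and regulators, those leading each list by adjusted p (at most 3) and the 5 most alike genes.

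Genes were kept by filterByExpr (minimum count 10, minimum total 15), scaled by TMM and tested with edgeR 4.0.16 in R 4.3.3, per comparison. A call needed an adjusted p-value under 0.05 and a log2 fold change beyond 1. FPKM was taken back from the log2 values. Correlations used log2 CPM with a prior count of 2. Permutation tests were exact and used Python 3.11.15. In simulated data in which 200 genes were altered by 1.5 on the log2 scale, 98.5% were recovered for the aging design (13562 genes) and 92% for the ALS design (14264 genes), and 3.43% and 6.12% of calls were false. Annotation was GENCODE M21, holding 21919 of 21995 genes. Alternatives were DESeq2 1.42.0, RLE factors, other filters, 1 fit of all libraries, limma 3.58.1 on log2(FPKM + 1), summed class I counts and leaving out each library.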

Additional observations from a re-analysis of the deposited data

Results flagged for a closer look

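The highest young library for B2m, at 119 CPM, stood apart from the nearest young library at 88.9, with a gap of 0.54 of the range of the 8 young libraries. Of 26 groups of values examined in this way it was the only one, and chance alone marks about 1 group in 20. It remained below the lowest old library at 195 CPM.

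The change in SOD1-G93A mice exceeded the change in aging, in the edgeR fit of all libraries, for 7 of the 10 genes, against 11.6% of all genes tested. The differences on the log2 scale were 0.60 for H2-K1, 0.54 for H2-D1, 0.54 for H2-T23, 0.58 for B2m, 0.89 for Tap1, 0.44 for Tapbp and 1.15 for Psmb8. The count was 1 or 2 when any of 4 single libraries was left out and 4 with no filter on low counts. Kit and experiment coincide with this contrast, and the ages and sexes of the mice also differ between the experiments.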

How the results depend on the processing

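Of the alternative values for counts of genes, ratios and correlations, 160 were labelled the same as the main value and 5 weaker. A ratio was the same if it kept its direction and side of the threshold. A count was the same if it stayed within a set fold of the main count, so 6 against 7 was labelled the same. All 5 concern how many genes changed more in SOD1-G93A mice than in aging, main value 7. This count was 4 with no filter on low counts, ranged from 1 to 7 with 1 SOD1-G93A or control library left out, and was 6 with DESeq2 and 7 with RLE factors. The cause was not tested. For single genes, 409 values kept direction and side, 33 fell short of a threshold, 6 passed one, and 1 reversed, namely the difference for Tap2 (-0.06), which was 0.021 without the control library of 13219797 counts and ranged from -0.12 to 0.021 with 1 library left out. The number of genes past both thresholds ranged from 5 to 6 in aging and from 7 to 8 in the ALS comparison with 1 library left out, and those past the adjusted p alone were 10 throughout in aging and 8 to 10 in the ALS comparison. It was 5 in aging with at least 10 counts in every library, which left Psmb9 untested, and 5 with limma on log2(FPKM + 1), which lost Tap1 (0.84). Psmb9 lost its call in the ALS comparison with limma (0.96), on a scale that understates low genes. No paired analysis was possible because the columns carry no replicate numbers. Depth limits Psmb9 most. The 3 libraries per ALS group keep exact permutation tests from going below 0.1.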
